A study of Mus musculus with 12 samples.

Results

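The genes described here are the deposited rows whose symbols begin with the family names Gcnt, B4galt, B3galt, B3gnt, C1galt, St3gal, St6gal, St8sia, Fut, Galnt, Mgat, Chst, Ext or Extl. This rule took 78 of 14541 listed genes. They were gathered around Gcnt1, which had drawn attention by its FPKM being higher with Hevin. The set was thus chosen by the FPKM of Gcnt1, while all other members were taken by symbol alone. The Gcnt1 values in the 3 groups are given as a description with no test, and Gcnt1 is left out of all counts of members. It was fitted with all other genes, which gave its SE, and it remains in the counts over all genes. Most members encode glycosyltransferases of the Golgi. The 10 Chst genes encode sulfotransferases and C1galt1c1 a chaperone, so the set is wider than a list of glycosyltransferases. The samples were wild-type mouse forebrain microglia of postnatal days 7 to 9, captured with CD11b magnetic beads, plated at 40000 to 80000 cells per well and kept for 6 h in Media, in 500 nM recombinant Hevin (the astrocyte-secreted product of Sparcl1) or in 50 ng/mL lipopolysaccharide (LPS, a ligand of Toll-like receptor 4). Each group held 4 libraries numbered 1 to 4, and the labels do not tie them to separate animals or cultures. The column headers place 1 library of each treatment under each of the group numbers 4 to 7, which are numbers 1 to 4 here. The p-values therefore cover the spread between these libraries, which may be technical, though marker sums of other cells also differed by number, as given below. The main fit did not use the numbers. All 12 genes of a microglia marker list were present, with summed levels of 1868 to 2475 FPKM in Hevin, against 1186 to 1455 for Media and 1092 to 1436 for LPS libraries. FPKM is scaled to gene length and to sequencing depth, so levels of different genes can be compared within a library. The deposited values also carry the authors' scaling factor for each library, on which levels and sums compared between groups depend. All listed genes summed to 414956 to 430248 FPKM in LPS, 319069 to 330239 in Media and 298271 to 327160 in Hevin libraries.

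Glycans are built stepwise in the Golgi, each enzyme adding a sugar to the product of another. Mucin-type O-glycans start with N-acetylgalactosamine (GalNAc) on serine or threonine, gain galactose to give core 1, and branch into core 2 when Gcnt1 adds N-acetylglucosamine (GlcNAc). Branches of O- and N-glycans are then lengthened with galactose and GlcNAc and capped with sialic acid, fucose or sulfate, while heparan and chondroitin chains grow on a separate linkage. On leukocytes such structures serve as ligands of selectins, galectins and Siglecs.

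The sequences upstream of the gene starts are shown for Gcnt1, around which the set was formed, and for B4galt1, whose log2 difference between Hevin and Media was the largest among tested members. They come from RefSeq on GRCm38.p6, lie on the minus strand, read 5′ to 3′ and leave out bases that the gene's own annotated exons cover. Capitals mark CAGAC or its complement GTCTG, the motif bound by SMAD transcription factors.
Gcnt1 start 1, chr19:17372845-17373094: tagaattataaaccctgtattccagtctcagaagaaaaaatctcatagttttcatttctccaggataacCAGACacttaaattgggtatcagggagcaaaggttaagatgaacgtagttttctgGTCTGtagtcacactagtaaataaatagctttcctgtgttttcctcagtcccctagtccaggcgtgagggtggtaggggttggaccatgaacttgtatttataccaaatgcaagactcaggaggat
Gcnt1 start 2, chr19:17356668-17356917: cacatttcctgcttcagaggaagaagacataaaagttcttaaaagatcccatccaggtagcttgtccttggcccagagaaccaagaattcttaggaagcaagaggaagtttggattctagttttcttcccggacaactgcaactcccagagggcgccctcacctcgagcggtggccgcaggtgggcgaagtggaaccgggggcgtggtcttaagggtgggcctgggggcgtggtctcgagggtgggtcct
Gcnt1 start 3, chr19:17339569-17339755: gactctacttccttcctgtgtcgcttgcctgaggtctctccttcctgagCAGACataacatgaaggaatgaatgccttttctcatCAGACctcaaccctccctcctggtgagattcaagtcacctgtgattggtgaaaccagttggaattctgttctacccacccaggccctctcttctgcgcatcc
B4galt1, chr4:40854006-40854234: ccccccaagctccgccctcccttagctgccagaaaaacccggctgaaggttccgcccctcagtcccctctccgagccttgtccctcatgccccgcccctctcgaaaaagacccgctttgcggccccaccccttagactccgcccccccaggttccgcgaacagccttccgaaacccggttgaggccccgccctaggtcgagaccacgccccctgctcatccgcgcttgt
The windows of Gcnt1 starts 1 and 3 held 2 matches each, and those of Gcnt1 start 2 and of B4galt1 held 0. The motif, searched on both strands, occurred in 42.2% of all 32851 windows and in 38.6% of the 83 windows found for 60 of the 78 members, and a match is a description, not a binding site. The AP-1 motif TGANTCA was in 6.75% of all windows and 4.82% of the members' windows, and the NF-kB consensus in 3.90% and 1.20%. Members' windows had a median GC content of 61.2% and 14 CpG dinucleotides, against 52.4% and 6 over all windows. The values are per gene and do not tell which of the Gcnt1 starts was used.

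Of the 78 members, 54 reached 1 FPKM in at least 4 libraries and were fitted together with all other genes by limma on log2(FPKM + 1). The 53 of these other than Gcnt1 are the tested members. Below, an error after an FPKM mean is the SD of 4 libraries and that after a log2 difference is the SE. A filter of this kind lets in a low gene through the group where it is high, and 6 tested members (B3gnt7, Chst2, Chst3, Chst7, Galnt12 and Galnt18) would not have met it without some 1 group. They are described with no p. With Hevin, the galactosyltransferase genes B4galt1 and B4galt7, the branching genes Mgat4a and Mgat5, and Extl3 rose, and Galnt3, B3gnt5 and St3gal5 fell.

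For Hevin against Media, 10 of the 53 members (18.9%) passed an adjusted p of 0.05, 7 higher and 3 lower, where 7.37% of all 11242 tested genes passed (4.27% higher, 3.10% lower). Without the 6 members just named, 5 were higher and 3 lower of 47 (17.0%), against 7.49% of all genes chosen the same way. When the replicate number entered the fit as a block, 13 members were higher and 6 lower, and 21.4% of all genes passed (10.8% higher, 10.6% lower). Counts with the block and in other alternatives, here and below, still hold any of the 6 members that passed. They were not repeated without them. The median log2 fold change was 0.05 over the 53 members and 0.00 over all genes. Within numbers 1 and 2 alone 2 of 44 members passed, against 0.884% of all genes, and within numbers 3 and 4 alone 12 of 49 did, 8 higher and 4 lower, against 10.5%.

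In LPS, St3gal1 and Gcnt2 showed the largest rises among tested members, and B3gnt5 and Chst12 the largest falls. Here 19 of 53 members (35.8%) passed, 8 higher and 11 lower, where 25.8% of all genes did (13.2% higher, 12.6% lower). Without the 6 members above, 7 were higher and 11 lower of 47 (38.3%), against 26.1% of all genes chosen the same way. The block gave 10 higher and 20 lower members, with 43.7% of all genes passing (21.5% higher, 22.2% lower). The median log2 fold change of members was -0.13 and that of all genes -0.02. When reads were scaled by library totals without the authors' scaling factors, the median of all genes moved to -0.29, and the calls to 5 higher and 31 lower members beside 728 higher and 5007 lower genes (50.8% of all). No member that passed and is named below changed sign there. Both comparisons use the same 4 Media libraries.

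**Figure D1:**
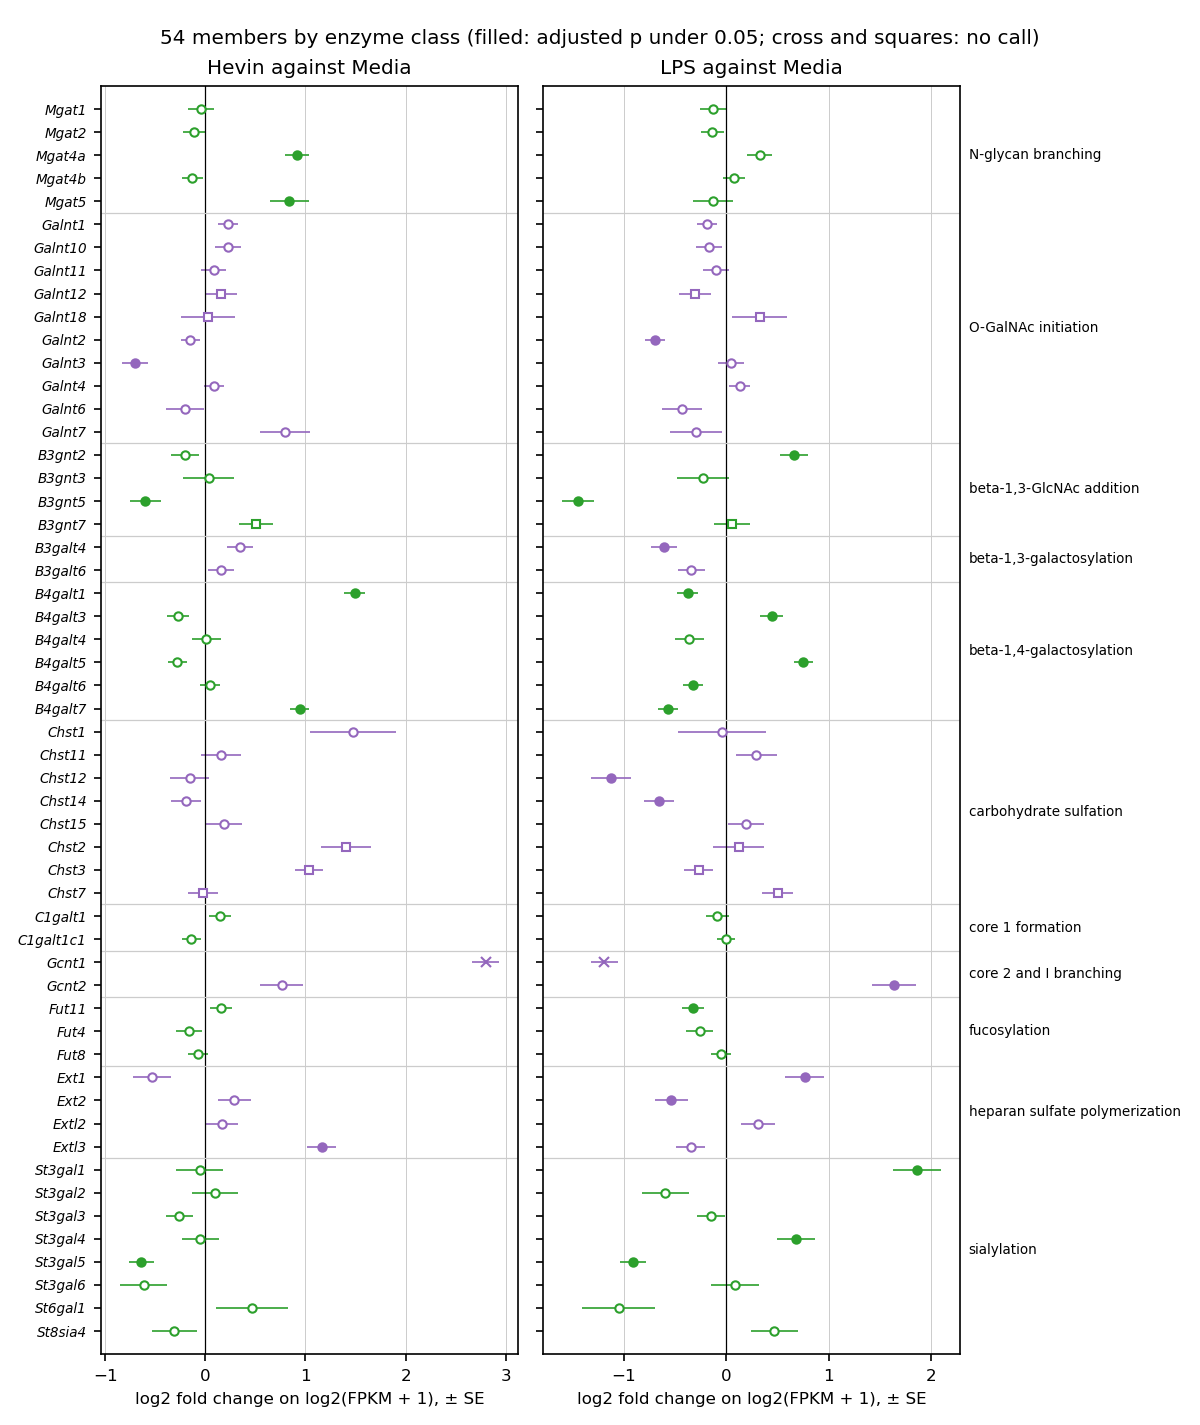
Log2 fold changes on the log2(FPKM + 1) scale (horizontal axis, points with bars of 1 SE) of the 54 members above the minimum, by enzyme class, for Hevin against Media on the left and LPS against Media on the right. Filled points passed an adjusted p of 0.05 in limma, the cross marks Gcnt1, for which no test is given, and squares mark the 6 members that met the minimum only with some 1 group. On the right the points farthest from 0 are St3gal1 and Gcnt2 above and B3gnt5 below.

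Core 2 and I branching is the class the set was built around. Gcnt1 (chr19:17326141-17372844 on GRCm38, minus strand) encodes the enzyme that turns core 1 into core 2 O-glycans. Its level was 4.19, 3.38, 4.13 and 4.64 FPKM in Media libraries 1 to 4, 41.9, 32.0, 29.9 and 34.3 in Hevin, and 1.71, 1.22, 0.943 and 1.09 in LPS. The 3 groups did not overlap, with Hevin highest and LPS lowest in each replicate number. The mean in Hevin was 8.46 times that in Media, from 7.25 times in number 3 to 10.0 times in number 1, a log2 difference of 2.80 ± 0.13 (SE). Among members ranked by mean FPKM, Gcnt1 stood at 34 in Media, 7 in Hevin and 46 in LPS. The mean in LPS was 0.304 times that in Media, at 1.24 ± 0.335 against 4.08 ± 0.524 FPKM, a log2 difference of -1.19 ± 0.13. Since these are bulk samples, fewer cells of a type and less RNA per cell cannot be told apart here or in any result that follows.

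Gcnt2 (chr13:40859754-40960892), which makes the I branches of poly-N-acetyllactosamine, rose in LPS instead. It measured 0.864, 1.47, 1.83 and 1.56 FPKM in Media, 2.71, 2.99, 3.37 and 3.29 in Hevin and 8.46, 3.73, 5.91 and 9.15 in LPS. LPS lay wholly above Hevin, and Hevin wholly above Media. LPS against Media gave a log2 fold change of 1.64 ± 0.22 (limma adjusted p = 2.05e-04). For Hevin the difference of 0.76 ± 0.22 missed the threshold (adjusted p = 0.0536) and passed in the blocked fit (0.0182). Of 24 alternatives 10 passed, among them those without LPS 1 (0.0494), LPS 2 (0.0114) or LPS 4 (0.0422), the fit to the 2 groups alone (0.0127), quantile normalization (0.0457) and limma-voom (0.0442), and the range was 0.00335 to 0.411. Gcnt2 shares exonic sequence with opposite-strand transcripts, and the sources used here do not say whether counting used strand. Gcnt4, another core 2 enzyme gene, was listed at 0 in number 2 of every group and reached at most 0.119 FPKM. Gcnt7, the remaining Gcnt gene among the listed rows, lay between 0.442 and 1.17 FPKM, and neither Gcnt4 nor Gcnt7 was tested. Family members absent from the listed rows could not be described.

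**Figure D2:**
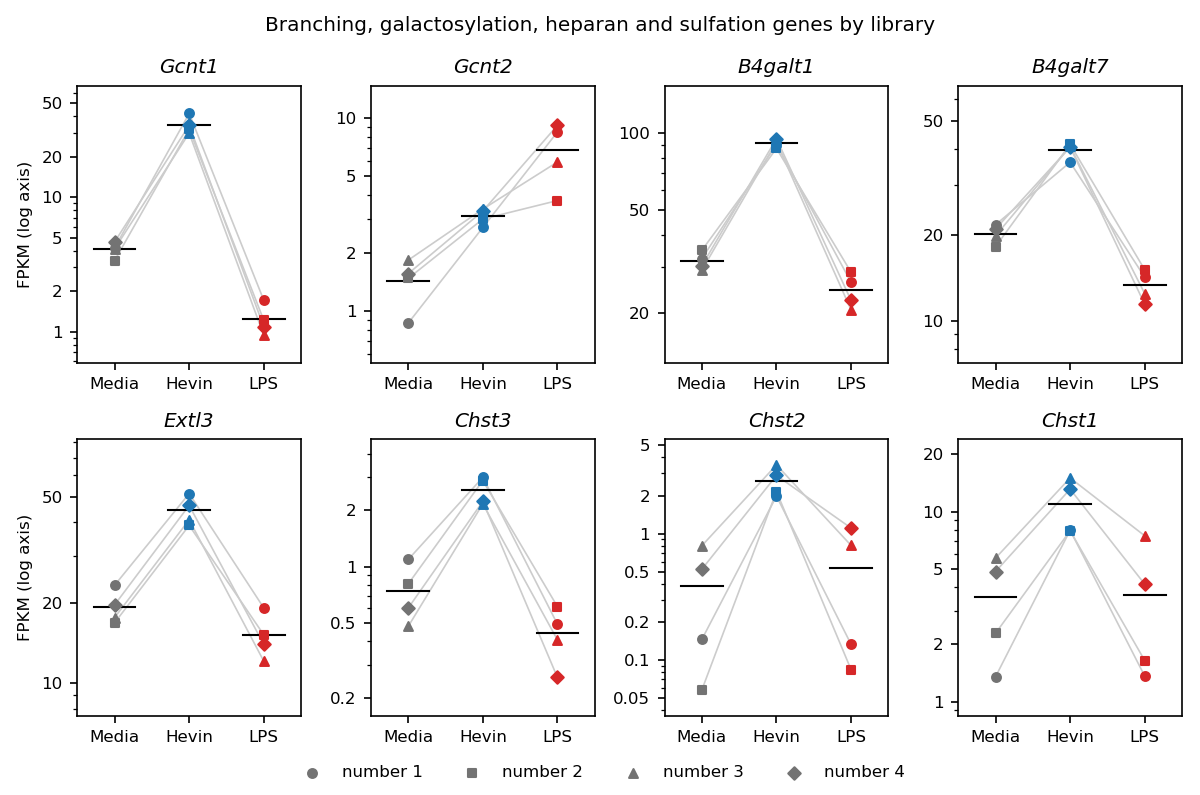
FPKM per library (log axis) of 8 members in Media, Hevin and LPS, with symbols for replicate numbers 1 to 4, grey lines joining the libraries of a number and black bars at the group means. Gcnt1 in Hevin sits between 29.9 and 41.9 FPKM, above all Media libraries, while Gcnt2 is highest in LPS. Chst1 and Chst2 are higher in numbers 3 and 4 than in 1 and 2 in every group.

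In the steps before core 2, the Galnt enzymes attach the first GalNAc, and of 10 tested Galnt genes 1 passed in each comparison, in both cases lower, where 7.37% and 25.8% of all genes passed. With the block these were 2 higher and 1 lower in Hevin and 4 lower in LPS. Galnt3 (chr2:66082766-66124994) stood at 2.85, 4.85, 3.95 and 4.16 FPKM in Media, 2.04, 2.06, 2.06 and 1.90 in Hevin, and 3.42, 4.53, 4.07 and 4.30 in LPS. All Hevin libraries were below all others, and the fall from Media was -0.70 ± 0.13 (limma adjusted p = 0.00499), while LPS differed from Media by 0.05 ± 0.13 (adjusted p = 0.833). Galnt2, which acts on many proteins, fell in LPS from 17.6 ± 1.5 to 10.5 ± 1.31 FPKM (a difference of -0.70 ± 0.10 by limma, adjusted p = 3.33e-04); a model transcript shares its exons on the same strand, so its separate value is uncertain.

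Galnt7, whose enzyme prefers peptides that already carry GalNAc, was the most abundant Galnt gene by FPKM. It gave 43.3, 33.7, 27.0 and 30.4 FPKM in Media, 79.7, 60.7, 45.8 and 51.8 in Hevin, and 43.9, 30.0, 18.1 and 21.6 in LPS. Hevin libraries exceeded all Media libraries, and within each number by 1.69 to 1.84 times, yet numbers 1 and 2 were higher than 3 and 4 in every group. The log2 difference of 0.80 ± 0.25 did not pass without the block (limma adjusted p = 0.0847) and passed with it (1.30e-04), without LPS 1 (0.0355) and in 7 of 25 alternatives in all, within a range of 4.72e-05 to 0.249. Its LPS difference of -0.29 ± 0.25 passed with the block (0.0226) and not without it (0.442). Galnt7 overlaps an opposite-strand transcript. Galnt1, with 17.3 ± 1.44 FPKM in Media and 20.4 ± 1.87 in Hevin, passed with the block (0.0305) and not without it (0.201).

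Core 1 itself is made by C1galt1, and C1galt1c1 encodes the chaperone that C1galt1 needs to fold. C1galt1 had 17.3 ± 1.67 FPKM in Media, 19.4 ± 2.56 in Hevin and 16.3 ± 1.71 in LPS. Its differences from Media were 0.15 ± 0.11 for Hevin (limma adjusted p = 0.515) and -0.09 ± 0.11 for LPS (0.627). C1galt1c1 had 15.2 ± 0.975, 13.7 ± 1.18 and 15.2 ± 1.40 FPKM in the same order, and none of its differences passed. At an unadjusted p of 0.05 neither gene passed against Media either, nor by limma-voom on recovered reads. Both treatments overlapped Media for these genes, whose products supply the acceptor of Gcnt1.

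Galactosylation in β-1,4 linkage split by gene. B4galt1 (chr4:40804602-40854005) encodes the main enzyme that adds galactose to GlcNAc on glycoproteins. Its level was 32.5, 35.0, 29.3 and 30.5 FPKM in Media, 90.3, 87, 92.1 and 95.0 in Hevin, and 26.3, 28.8, 20.5 and 22.3 in LPS. The groups did not overlap, and B4galt1 moved from rank 7 of the members in Media to rank 1 in Hevin. Hevin against Media gave 1.49 ± 0.10 (limma adjusted p = 4.54e-06), with ratios of 2.49 to 3.14 within numbers. LPS against Media gave -0.37 ± 0.10 (adjusted p = 0.0196), a call that ended without Media 2 (0.0530), LPS 3 (0.0545) or LPS 4 (0.0569). It also ended with the 2 groups alone (0.0565). It passed in 20 of 25 alternatives, within a range of 1.89e-04 to 0.204.

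B4galt7 (chr13:55599896-55610443) adds the first galactose of the linkage that carries heparan and chondroitin chains. It stood at 21.7, 18.2, 19.9 and 21.0 FPKM in Media, 36.0, 41.6, 40.8 and 40.6 in Hevin, and 14.2, 15.1, 12.5 and 11.4 in LPS. The order was thus the same as for B4galt1, with log2 fold changes of 0.94 ± 0.10 in Hevin (limma adjusted p = 1.15e-04) and -0.57 ± 0.10 in LPS (0.00126); a model transcript overlaps it on the opposite strand. B4galt5, which makes lactosylceramide, went the other way and was the most abundant member by FPKM in LPS. Its libraries read 54.4, 55.8, 53.4 and 53.9 FPKM in Media, 41.6, 44.2, 45.1 and 47.8 in Hevin, and 109, 80.1, 86.8 and 95.8 in LPS.

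No B4galt5 group overlapped another. The rise in LPS was 0.75 ± 0.09 (limma adjusted p = 1.20e-04). In Hevin the difference of -0.28 ± 0.09 had adjusted p = 0.0981, against 0.0388 in the blocked fit and 0.0451 without LPS 1, with 4 of 25 alternatives passing, within a range of 0.0379 to 0.461. B4galt3 also rose in LPS, from 21.3 ± 1.73 to 29.6 ± 5.07 FPKM (0.45 ± 0.11, adjusted p = 0.0117; 0.300 when scaled by library totals, with a range of 0.00194 to 0.300). It shares exonic sequence with Ppox on the opposite strand. B4galt6, the other lactosylceramide synthase gene, was lower in LPS, at 6.11 ± 0.303 FPKM against 7.92 ± 1.08 in Media (-0.32 ± 0.10, adjusted p = 0.0326). Of the 6 tested genes of the class, 2 passed in Hevin, both higher, and 5 in LPS, 2 higher and 3 lower, where 7.37% and 25.8% of all genes passed. The block gave 2 higher and 1 lower in Hevin, and 2 and 4 in LPS. Summed over 7 listed genes, the class was at 138 ± 5.04 FPKM in Media, 203 ± 6.78 in Hevin and 168 ± 17.7 in LPS.

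In β-1,3 linkage, B3galt4 and B3galt6 were tested. B3galt4, which completes the ganglioside GM1, measured 2.44 ± 0.361 FPKM in Media, 3.39 ± 0.652 in Hevin and 1.26 ± 0.133 in LPS. Its fall in LPS passed (-0.60 ± 0.13, limma adjusted p = 0.00449), while the Hevin difference did not (0.35 ± 0.13, 0.135). B3galt6 adds the galactose that follows the B4galt7 step, and its differences of 0.16 ± 0.13 in Hevin and -0.34 ± 0.13 in LPS did not pass (adjusted p = 0.556 and 0.0740); the latter passed with the block (0.0130).

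Among enzymes that add GlcNAc in β-1,3 linkage, B3gnt5 (chr16:19760208-19772753) starts the lacto-series glycolipids. It stood at 7.61, 5.60, 7.22 and 8.53 FPKM in Media, 5.06, 4.43, 4.14 and 4.01 in Hevin and 1.98, 1.29, 2.75 and 2.19 in LPS. The groups did not overlap and both treatments were below Media. LPS against Media gave -1.44 ± 0.16 (limma adjusted p = 3.92e-05). Hevin against Media gave -0.60 ± 0.16 (0.0356), a call that ended without Media 1 (0.0824), Media 3 (0.0888), Media 4 (0.106), Hevin 2 (0.0761), Hevin 3 (0.0919) or Hevin 4 (0.103). It also ended with a pseudocount of 0.1 (0.0658) and with no filter (0.0514). It passed in 16 of 25 alternatives, within a range of 0.00250 to 0.535.

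B3gnt2, the main enzyme of poly-N-acetyllactosamine extension, rose in LPS from 26.4 ± 3.12 to 42.5 ± 6.75 FPKM (a difference of 0.66 ± 0.14 by limma, adjusted p = 0.00440) and was at 22.9 ± 3.96 in Hevin. Model transcripts share its exons on the same strand, so its separate value is uncertain. B3gnt7, which lengthens keratan sulfate, had 0.933 ± 0.156 FPKM in Media and 1.77 ± 0.476 in Hevin, a difference of 0.51 ± 0.17. B3gnt3 did not pass against Media in either treatment. B3gnt7, Mgat2 and Fut8 overlap opposite-strand transcripts as well.

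N-glycan branching differed by gene, also between the paralogs Mgat4a and Mgat4b. Mgat1 and Mgat2, which build the first antennae, held 34.2 ± 5.17 and 33.1 ± 3.03 FPKM in Media and did not pass against either treatment. Mgat4a (chr1:37439340-37541016), which adds the β-1,4 branch, was at 16.9, 13.7, 13.2 and 14.0 FPKM in Media, 32.7, 27.9, 24.3 and 27.5 in Hevin, and 21.4, 19.7, 15.4 and 17.2 in LPS. Every Hevin library exceeded every other library, and the rise was 0.91 ± 0.12 (limma adjusted p = 6.58e-04). The LPS difference of 0.33 ± 0.12 had adjusted p = 0.0667, against 0.00202 in the blocked fit, 0.0419 without Media 1 and 0.0375 without LPS 3, with 5 of 25 alternatives passing, within a range of 0.00173 to 0.895. Its paralog Mgat4b, at 62.6 ± 2.94 FPKM the most abundant member in Media, differed by -0.13 ± 0.11 in Hevin and 0.08 ± 0.11 in LPS and passed in neither.

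Mgat5 (chr1:127205015-127488336) adds the β-1,6 branch, on which galectin ligands are often carried. It gave 12.2, 12.6, 9.72 and 7.95 FPKM in Media, 21.6, 21.7, 17.6 and 17.5 in Hevin, and 13, 11.7, 6.51 and 8.07 in LPS. Hevin libraries lay above all others, whereas Media and LPS overlapped. The rise of 0.84 ± 0.20 (limma adjusted p = 0.0228) no longer passed without Hevin 1 (0.0651), Hevin 2 (0.0643), Media 3 (0.0691), Media 4 (0.0721) or the 3 libraries numbered 2 (0.0675). It passed in 19 of 25 alternatives, within a range of 6.36e-05 to 0.0721. Mgat5 overlaps Tmem163 on the opposite strand.

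After Gcnt1, the members above the minimum with the largest ratios of mean FPKM between Hevin and Media were the sulfotransferase genes Chst2 (6.88), Chst3 (3.44) and Chst1 (3.11). Chst2 (chr9:95399292-95406722) sulfates GlcNAc at the 6 position, a modification of L-selectin ligands. Its libraries read 0.145, 0.0579, 0.801 and 0.522 FPKM in Media, 1.98, 2.15, 3.50 and 2.88 in Hevin, and 0.133, 0.0837, 0.805 and 1.11 in LPS. Hevin was above all other libraries, with a log2 difference from Media of 1.41 ± 0.25. Chst3 (chr10:60181532-60219260), the chondroitin 6-O-sulfotransferase gene, stood at 1.09, 0.811, 0.481 and 0.603 FPKM in Media, 3.00, 2.88, 2.17 and 2.23 in Hevin and 0.495, 0.614, 0.408 and 0.257 in LPS. The log2 difference between Hevin and Media was 1.04 ± 0.14, again without overlap. Both genes met the testing minimum through their Hevin libraries, so these differences carry no p.

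Chst1, which sulfates galactose of keratan sulfate, had 1.35, 2.29, 5.69 and 4.83 FPKM in Media, 7.97, 7.92, 15.0 and 13.1 in Hevin, and 1.36, 1.65, 7.45 and 4.15 in LPS. Hevin exceeded all Media and LPS libraries, and in every number by at least 2.01 times, but numbers 3 and 4 were higher throughout. The difference from Media of 1.48 ± 0.43 gave 0.0596 as adjusted p, against 5.93e-05 in the blocked fit, 0.0483 without LPS 1 and 0.0324 without LPS 3, with 10 of 25 alternatives passing, within a range of 3.62e-05 to 0.154. A list of 8 endothelial and mural cell markers also varied by number, with sums of 29.2 to 31.4 FPKM in number 1, 69.8 to 79.5 in number 2, 151 to 173 in number 3 and 101 to 111 in number 4. Its part in the Chst1 and Chst2 values was not tested, and within a number the sum was alike in the 3 groups.

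Other sulfotransferase genes moved with LPS. Chst12, which sulfates chondroitin at the 4 position, measured 12, 11.2, 8.03 and 12.5 FPKM in Media, 10.1, 7.75, 9.18 and 11.7 in Hevin, and 6.80, 4.04, 3.11 and 4.37 in LPS. LPS lay below every other library, a fall of -1.12 ± 0.19 (limma adjusted p = 0.00141), and Hevin overlapped Media. Chst14, the dermatan 4-O-sulfotransferase gene, fell from 2.56 ± 0.39 to 1.28 ± 0.395 FPKM (-0.65 ± 0.15, adjusted p = 0.00690). Chst7, which met the testing minimum through LPS libraries and is given with no p, was at 0.714 ± 0.217 FPKM in Media and 1.45 ± 0.455 in LPS. Chst11, the most abundant of the class at 20.5 ± 0.702 FPKM in Media, spread from 17.6 to 38.5 in LPS and did not pass (0.29 ± 0.20, 0.315).

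Heparan sulfate genes also divided. Extl3 (chr14:65052060-65149855) encodes the enzyme that starts the heparan chain on the linkage. It was at 23.3, 16.8, 17.6 and 19.6 FPKM in Media, 51.3, 39.0, 40.9 and 46.3 in Hevin, and 19.1, 15.2, 12.1 and 14.0 in LPS. Hevin stood apart from both other groups, with a rise of 1.16 ± 0.14 (limma adjusted p = 4.13e-04). In LPS the difference of -0.34 ± 0.14 had adjusted p = 0.0994, against 0.00456 in the blocked fit and 0.0272 without LPS 1, with 6 of 25 alternatives passing, within a range of 0.00106 to 0.626.

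Ext1 and Ext2 together form the polymerase of the chain, and their genes changed in opposite directions in LPS. Ext1 (chr15:53064038-53346159) stood at 50.5, 38.5, 27.7 and 28.4 FPKM in Media, 28.5, 26.1, 20.8 and 21.8 in Hevin, and 69.3, 48.7, 55.9 and 71.8 in LPS. The groups overlapped only at their edges, and within every number LPS was highest and Hevin lowest. LPS against Media gave 0.77 ± 0.19 (limma adjusted p = 0.0117), and Hevin against Media -0.53 ± 0.19 (0.131, or 0.0204 with the block, with 2 of 25 alternatives passing, within a range of 0.0106 to 0.292). Ext2 fell in LPS from 4.66 ± 0.827 to 2.93 ± 0.723 FPKM (-0.53 ± 0.16, 0.0314). The Ext2 call ended without LPS 1 (0.0604), LPS 2 (0.0766), Media 2 (0.0706), Media 3 (0.0750), Media 4 (0.0830) or the 3 libraries numbered 2 (0.0978). It also ended with quantile normalization (0.0610) and the 2 groups alone (0.0557). It passed in 16 of 25 alternatives, within a range of 0.00332 to 0.215.

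The largest rise in LPS among the members was that of 1 sialyltransferase gene. St3gal1 (chr15:67102875-67176830) caps the galactose of core 1 with α-2,3 sialic acid, using the same acceptor as Gcnt1. Its level was 14.5, 11.1, 21.1 and 17.8 FPKM in Media, 14.5, 10.1, 19.0 and 18.2 in Hevin, and 45.1, 51.4, 72.8 and 75.6 in LPS. Hevin overlapped Media, at a difference of -0.06 ± 0.24 (limma adjusted p = 0.937). LPS lay above both, with a rise of 1.86 ± 0.24 (adjusted p = 1.54e-04) and ratios of 3.11 to 4.65 within numbers. St3gal4, which acts on N-acetyllactosamine ends, rose from 2.93 ± 0.546 to 5.47 ± 1.85 FPKM in LPS (0.69 ± 0.18, 0.0172). This call ended without LPS 4 (0.0540), with scaling by library totals (0.0577) and within numbers 3 and 4 alone (0.0639). It passed in 21 of 25 alternatives, within a range of 5.60e-04 to 0.229, and St3gal4 overlaps an opposite-strand transcript.

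St3gal5 (chr6:72097592-72154571) makes GM3, the first ganglioside, and fell with both treatments. It stood at 17.9, 20.3, 18.3 and 23.4 FPKM in Media, 14.3, 14.5, 9.94 and 11.4 in Hevin, and 10.8, 10.6, 9.72 and 9.27 in LPS. All treated libraries were below all Media libraries, while Hevin and LPS overlapped. The log2 fold changes were -0.64 ± 0.13 in Hevin (limma adjusted p = 0.00859) and -0.91 ± 0.13 in LPS (2.90e-04). The treatments differed from each other by 0.27 ± 0.13, which did not pass (0.104). It passed in 2 of 25 alternatives, without Hevin 3 (0.0332) and at 0.60 with scaling by library totals (9.37e-04). The range was 9.37e-04 to 0.407.

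St6gal1, whose enzyme adds α-2,6 sialic acid, gave 18.7, 9.79, 6.42 and 8.21 FPKM in Media, 19.0, 17.3, 9.30 and 12.9 in Hevin, and 9.09, 4.55, 2.53 and 3.00 in LPS. Number 1 was highest in every group, and within each number LPS was lowest. LPS against Media gave -1.05 ± 0.36, with 0.05003 as adjusted p, just outside the threshold, against 6.55e-05 in the blocked fit, 0.0109 without LPS 1, 0.0492 without Hevin 3 and 0.0375 without Media 3, with 9 of 25 alternatives passing, within a range of 1.18e-05 to 0.210. The Hevin difference of 0.46 ± 0.36 passed with the block (0.0226) and not without it (0.541), with 2 of 25 alternatives passing, within a range of 0.0141 to 0.783. St6gal1 overlaps an opposite-strand transcript.

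St3gal6, another enzyme for N-acetyllactosamine ends, was at 8.49 ± 1.72 FPKM in Media, 5.28 ± 1.64 in Hevin and 9.37 ± 3.78 in LPS. Its Hevin difference of -0.61 ± 0.24 had adjusted p = 0.152 and passed in 4 of 25 alternatives, among them the block (0.00293), numbers 3 and 4 alone (0.009998) and the fit without the 3 libraries numbered 2 (0.0253), within a range of 0.00138 to 0.627; it overlaps Dcbld2 on the opposite strand. St8sia4, which builds polysialic acid, had 9.43 ± 1.49 FPKM in Media, 7.52 ± 2.13 in Hevin and 13.9 ± 4.54 in LPS. In LPS its difference of 0.47 ± 0.23 had adjusted p = 0.149, against 0.0374 in the blocked fit and 0.0278 without LPS 1, with 3 of 25 alternatives passing, within a range of 0.0221 to 0.585. St3gal2, a further enzyme for core 1 and ganglioside ends, measured 9.70 ± 2.95 FPKM in Media and 6.12 ± 1.99 in LPS (-0.59 ± 0.23, 0.0830; 1.90e-04 with the block and 0.0319 without LPS 1, with 5 of 25 alternatives passing, within a range of 4.40e-05 to 0.356). Summed over the 12 listed sialyltransferase genes, the class held 84.3 ± 5.15 FPKM in Media, 74.3 ± 8.22 in Hevin and 117 ± 10.7 in LPS. St3gal1 alone held 11.1 to 21.1 FPKM in Media and 45.1 to 75.6 in LPS, so the higher sum does not describe the class. Of 8 tested genes 1 was lower in Hevin, and 2 were higher and 1 lower in LPS (median -0.03), where 7.37% and 25.8% of all genes passed. With the block these were 1 higher and 2 lower in Hevin, and 3 and 3 in LPS.

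**Figure D3:**
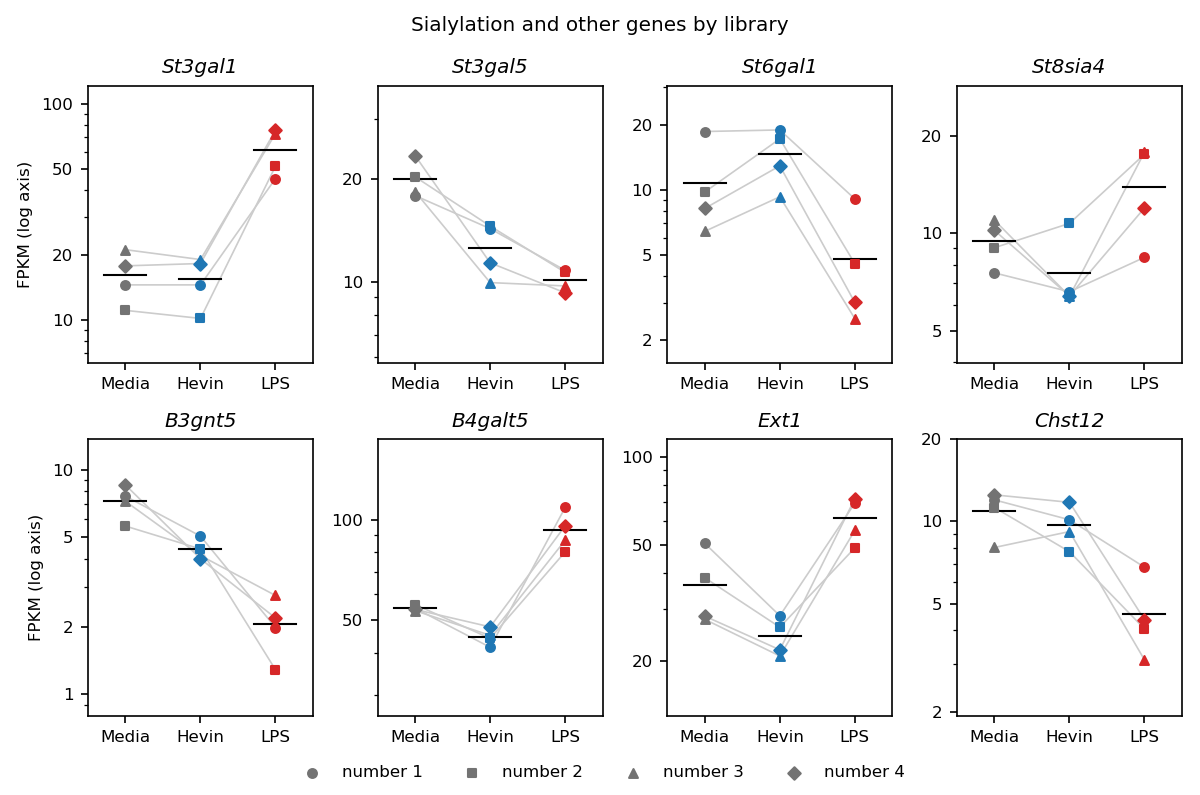
FPKM per library (log axis) of 8 members in Media, Hevin and LPS, with symbols for replicate numbers 1 to 4, grey lines joining the libraries of a number and black bars at the group means. St3gal1 is above 45 FPKM in all LPS libraries and at most 21.1 elsewhere, St3gal5 and B3gnt5 are below Media in both treatments, and St6gal1 is highest in number 1 of each group.

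Of 3 tested fucosyltransferase genes 0 passed in Hevin, and likewise 0 at an unadjusted p of 0.05 and 0 by limma-voom. Fut11 fell in LPS from 5.06 ± 0.567 to 3.84 ± 0.550 FPKM (a difference of -0.32 ± 0.11 by limma, adjusted p = 0.0458). That call ended without Media 1, 3 or 4, without Hevin 2, 3 or 4, without LPS 2 or 4, or without the 3 libraries numbered 2. It also ended with a pseudocount of 5 (0.0503), no filter (0.0693), quantile normalization (0.134) and the 2 groups alone (0.0930). It passed in 10 of 25 alternatives, within a range of 0.00101 to 0.348. Fut4, which adds the α-1,3 fucose of Lewis x, had 2.33 ± 0.331 FPKM in Media, 1.98 ± 0.216 in Hevin and 1.81 ± 0.462 in LPS, and Fut8, the core fucosylation enzyme gene, had 3.85 ± 0.467, 3.61 ± 0.266 and 3.68 ± 0.367. Neither passed against Media.

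**Figure D4:**
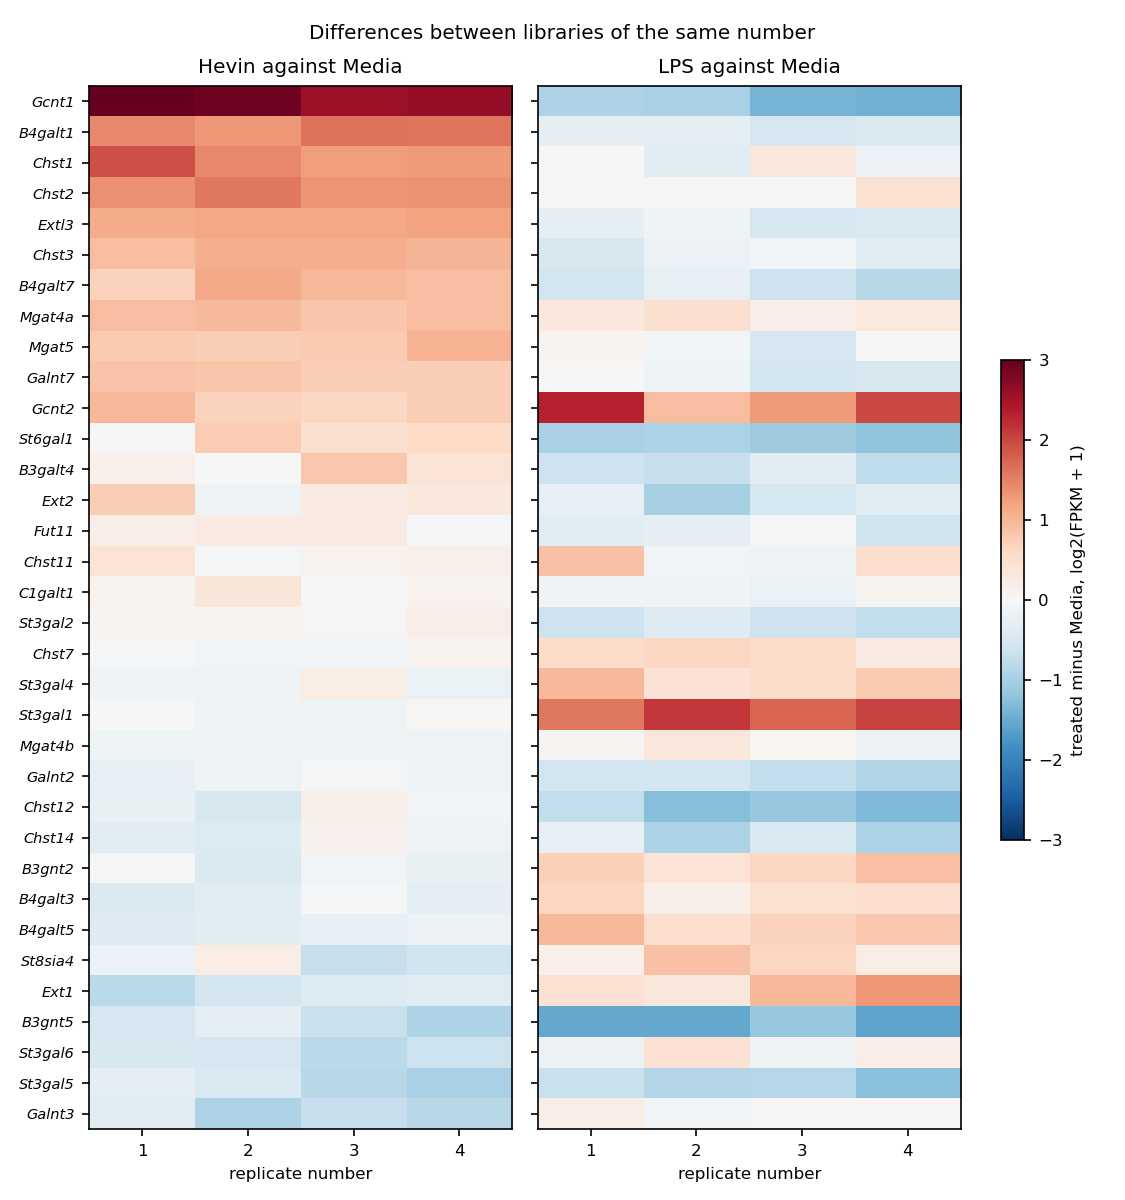
Difference in log2(FPKM + 1) between the treated and the Media library of the same replicate number (columns 1 to 4) for the 34 members above the minimum named by rule, Hevin on the left and LPS on the right, coloured from -3 (blue) to 3 (red) and ordered by the Hevin fold change. Gcnt1 is positive in all 4 numbers with Hevin and negative in all 4 with LPS, and Gcnt2 and St3gal1 are positive in all 4 with LPS.

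The direct contrast of Hevin with LPS reuses the libraries of the comparisons above. It found 23 members higher in Hevin and 11 lower among 53 (64.2%), where 41.7% of all genes passed (22.0% higher, 19.7% lower). Without the 6 members that met the minimum through some 1 group, 20 were higher and 10 lower of 47 (63.8%), against 41.9% of all genes chosen the same way. With the block the counts were 27 and 12, with 57.9% of all genes, and under library totals 32 and 8 members beside 5440 and 963 genes (56.8% of all). For Gcnt1, given with no test, the mean was 27.8 times higher in Hevin. After it the largest tested differences toward Hevin were B4galt1 (1.86 ± 0.10, limma adjusted p = 9.09e-08), B4galt7 (1.51 ± 0.10, 2.81e-07), St6gal1 (1.51 ± 0.36, 0.00550), Chst1 (1.51 ± 0.43, 0.0140) and Extl3 (1.51 ± 0.14, 7.47e-06). Toward LPS they were St3gal1 (-1.92 ± 0.24, 5.90e-05), Ext1 (-1.30 ± 0.19, 2.35e-04), B4galt5 (-1.03 ± 0.09, 4.59e-06) and Gcnt2 (-0.88 ± 0.22, 0.00679). Chst1 no longer passed here without the 3 libraries numbered 2 (0.0535, with a range of 8.49e-06 to 0.0535).

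Genes that feed the enzymes were followed as lists. Of 13 tested nucleotide sugar transporter genes, limma called 0 in Hevin (3 at an unadjusted p of 0.05, 0 by limma-voom) and 3 lower in LPS (23.1%, beside 25.8% of all genes), with list medians of 0.02 and -0.17. With the block 1 was higher in Hevin (Slc35a1, adjusted p = 0.0329), and 1 higher and 5 lower in LPS. The largest fall was that of Slc35c2, at 22.0 ± 3.18 FPKM in Media and 10.1 ± 2.43 in LPS (-1.07 ± 0.15, adjusted p = 3.60e-04). Of 25 tested genes for the synthesis of sugar and sulfate donors, limma called 0 in Hevin (5 at an unadjusted p of 0.05, 0 by limma-voom and 3 higher with the block) and 6 lower in LPS (24.0%, beside 25.8% of all genes; 1 higher and 7 lower with the block), with medians of 0.01 and -0.18. Cmas, which activates sialic acid, went from 32.3 ± 2.97 to 16.4 ± 2.38 FPKM in LPS (-0.94 ± 0.12, 1.70e-04).

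Of 28 tested genes for other Golgi glycan enzymes, 3 rose in Hevin (6 higher and 5 lower with the block), and 3 rose and 6 fell in LPS (5 and 11 with the block), which is 10.7% and 32.1% beside 7.37% and 25.8% of all genes, with medians of 0.02 and -0.11. Xylt1, which attaches the xylose on which B4galt7 acts, rose in Hevin from 4.38 ± 1.37 to 8.32 ± 1.29 FPKM (0.81 ± 0.16, limma adjusted p = 0.00799). Man2a1, the mannosidase that trims N-glycans before the Mgat2 step, rose in LPS from 11.7 ± 1.68 to 30.7 ± 3.28 FPKM (1.32 ± 0.11, 5.80e-06). Among 12 tested genes of mucin-type carriers and selectin ligands, limma called 0 in Hevin (4 at an unadjusted p of 0.05, 0 by limma-voom, 2 higher and 4 lower with the block), and 2 rose and 1 fell in LPS (25.0%, beside 25.8% of all genes; 3 and 1 with the block), with medians of -0.19 and 0.07. Sele, which encodes E-selectin, a selectin and not a ligand, had 0.528 ± 0.247 FPKM in Media and 3.71 ± 1.90 in LPS (1.55 ± 0.25). It met the testing minimum through its LPS libraries and is given with no p, but it is 1 of the 2 genes counted as higher in LPS. Selplg, which encodes PSGL-1, the best known carrier of core 2 selectin ligands, had 5.93 ± 1.81 FPKM in Media and 9.04 ± 1.87 in Hevin (0.55 ± 0.20, 0.131, or 0.00405 in the blocked fit); it was named after its values were seen.

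Markers of other cells moved with some groups and numbers. The 8 astrocyte markers summed to 114 to 237 FPKM in LPS, 51.0 to 88.3 in Media and 21.9 to 47.5 in Hevin, of which Gja1 made up 174 ± 51.1, 60.7 ± 14.0 and 25.3 ± 6.61. Without Gja1 the sums were 2.80 to 19.1, 2.76 to 13.6 and 2.03 to 14.3 FPKM. None of the 4 other tested astrocyte markers passed against Media without the block. With it, 3 of 5 tested in the list were higher in LPS, Gja1 included, beside 21.5% of all genes. Ext1, B4galt5 and B3gnt2 were likewise highest in LPS and lowest in Hevin, and the part of other cells in those values was not tested. The 7 listed oligodendrocyte lineage markers summed to 23.9 to 39.0 FPKM in Hevin, 12.4 to 15.6 in Media and 8.46 to 10.3 in LPS. Cspg4 had 20.1 ± 8.10 FPKM in Hevin and 2.72 ± 1.24 in Media. Without Cspg4 the ranges were 10.5 to 12 in Hevin, 10.3 to 13.1 in Media and 7.16 to 9.43 in LPS. Of 4 tested in this list, 2 were lower in LPS than in Media, beside 12.6% of all genes. These were Mbp (-0.85 ± 0.20, limma adjusted p = 0.00971) and Cspg4 (-0.86 ± 0.29, 0.0458). With the block 3 were lower, beside 22.2% of all genes. The 7 listed neutrophil and monocyte markers summed to 1907 to 2071 FPKM in the 3 libraries numbered 2 and 38.8 to 104 in the other 9. In numbers 1, 3 and 4 they summed to 86.3, 104 and 103 in LPS, 59.1, 53.7 and 49.6 in Media, and 76.8, 38.8 and 48.2 in Hevin. Of 6 tested, 0 passed in any comparison without the block. With it 4 were higher in LPS than in Media (beside 43.7% of all genes) and 5 lower in Hevin than in LPS (57.9%). Besides the calls given above, those of St3gal2 (limma adjusted p = 0.0798) and Chst14 (0.0781) for Hevin against LPS ended without number 2. Border macrophage markers summed to 831 to 968 FPKM for Media, 714 to 881 for LPS and 631 to 841 for Hevin libraries, with genes moving in both directions. Mrc1 fell in Hevin from 161 ± 16.8 to 71.7 ± 12 FPKM (-1.16 ± 0.13, adjusted p = 2.05e-04), where Ms4a7 (0.91) and F13a1 (0.33) rose, and Cd163 rose in LPS from 9.36 ± 1.58 to 15.1 ± 3.88 FPKM (0.61 ± 0.19, 0.0317). Among microglia markers 6 of 12 rose in Hevin (11 with the block) and 2 fell in LPS (1 higher and 4 lower with the block). Cx3cr1, the fractalkine receptor gene, was at 14.2 ± 1.07 FPKM in Media, 54.7 ± 15.1 in Hevin (1.84 ± 0.15, 2.03e-05) and 8.68 ± 0.980 in LPS (-0.66 ± 0.15, 0.00827). Neuron markers summed to at most 17.1 in any library, and the 1 listed lymphocyte marker to at most 1.19. No listed marker was at 0 in all libraries.

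The 24 members below the minimum were low throughout, and 18 of the 78 members stayed under 1 FPKM in every library. They include Mgat3, which adds the bisecting GlcNAc and reached 0.723 FPKM, St8sia1, the GD3 synthase gene, at up to 0.379, St8sia2, the other polysialic acid enzyme gene, at up to 0.766, and Fut9, an enzyme of Lewis x synthesis in brain, at up to 0.293. Chst10 and Extl1 are among them as well. B4galt2 was also below the minimum but reached 1.01 FPKM in Media 3 and in Hevin 3. Depth was 18343996 to 27361665 recovered reads per library, and at this depth differences in such genes were not assessed.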

How the data were processed

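Libraries were prepared with the TruSeq stranded mRNA kit and read as paired ends, per the labels' protocols. What the authors deposited is a single table of FPKM for 14541 gene symbols. The submitters' processing notes name the build mm10 and, with no role or order, edgeR 3.30.3, R 4.0.0, Subread 1.6.3 with featureCounts, Bowtie2 2.3.5.1, Trimmomatic 0.39 and FastQC 0.11.7. The sources used here do not give the annotation, the row filter or the use of strand. FPKM steps gave whole reads within 0.1 in 100.0% of rows, which sets the depth at 18343996 to 27361665 reads per library.

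The 11242 genes reaching 1 FPKM in 4 or more libraries were fitted over all 12 libraries by limma 3.58.1 (R 4.3.3), using log2(FPKM + 1) and a trended prior variance. P-values were adjusted by Benjamini-Hochberg over all tested genes, at a threshold of 0.05. A fold change on this scale understates that of low genes. The method was tested on simulated data.

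The members and lists were chosen with earlier results of these data known. Groups and numbers come from the titles. Numbers pair the libraries: deviations from group means correlated in all 12 pairs of the same number, from 0.230 to 0.784 (mean between different numbers -0.201), so the blocked value stands beside a result whose call it alters or whose count it moves by over 1.5 times. Named members were all Gcnt genes, the 30 called members with the largest absolute log2 fold change in any comparison, and the most abundant member of each class, 36 in all; other members, and Selplg, were named after their values were seen. Of each further list, the called gene with the largest change per treatment was named. Alternatives were other pseudocounts (0.1 and 5), filters, quantile normalization, limma-voom on recovered reads, only the 2 groups compared, the block, and each library left out. Library totals without scaling factors, fits within numbers, leaving out number 2, and the block with limma-voom were added after seeing the data. Positions of all 78 members come from GENCODE M21 on GRCm38.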

Additional observations from a re-analysis of the deposited data

Results flagged for a closer look

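Each of 108 sets of 4 libraries (36 named members in 3 groups) was examined for a library far from the rest, by the gap to its nearest neighbour as a share of the whole range; a library past Dixon's 95% critical value was listed, which chance gives in about 1 of 20 sets. The 6 that were listed follow, without an explanation.

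B4galt7 in Hevin 1 was low, at 36.0 FPKM against 40.6 to 41.6 in the other Hevin libraries (share 0.8355). Ext2 in Media 1 was low, at 3.42 FPKM against 5.05 to 5.11 (0.9634). St8sia4 in Hevin 2 was high, at 10.7 FPKM against 6.38 to 6.60 (0.9508). Galnt3 in Hevin 4 was low by a small amount, at 1.90 FPKM against 2.04 to 2.06 (0.8716). St3gal6 in LPS 2 was high, at 15.0 FPKM against 7.11 to 8.13 (0.8707). Chst7 in Media 3 was high, at 1.04 FPKM against 0.581 to 0.635 (0.8822).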

How the results depend on the processing

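No named member that passed the test reversed its direction under any alternative. With the replicate block, calls over all genes went from 480 higher and 349 lower to 1210 and 1196 for Hevin against Media and from 1484 and 1413 to 2416 and 2498 for LPS against Media. Members called are here always without Gcnt1, but hold any of the 6 members that met the minimum through some 1 group and passed. They went from 7 higher and 3 lower to 13 and 6 for Hevin, and from 11 to 20 lower for LPS, where the fit to the 2 groups alone gave 7 lower. Block and limma-voom together gave 1329 and 1290 genes with 13 and 6 members for Hevin, and 2414 and 2595 genes with 21 members lower for LPS. Numbers 1 and 2 alone, with 2 libraries a group, gave 75 and 16 genes with 2 and 0 members for Hevin, 362 and 142 genes with 1 and 2 members for LPS, and 711 and 811 genes with 7 and 4 members for Hevin against LPS; fewer libraries entered these fits, in which 36 of the named members' calls were lost. Numbers 3 and 4 alone gave 573 genes lower for Hevin. Library totals without scaling factors gave 728 and 5007 genes with 5 and 31 members for LPS, and 5440 and 963 genes for Hevin against LPS, where 2470 and 2215 passed as deposited; the median of all genes moved there from 0.02 to 0.32.

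Leaving out each library gave 6 to 10 members higher and 2 to 4 lower for Hevin, 7 to 9 and 8 to 12 for LPS, and 19 to 23 and 9 to 12 for Hevin against LPS, with 307 to 545 and 203 to 390, 1172 to 1476 and 989 to 1530, and 2006 to 2486 and 1837 to 2221 genes over all. For Hevin against LPS, the calls of St3gal2, St3gal6 and Chst14 ended without a single library, at adjusted p up to 0.0940, 0.0892 and 0.0811. The cause of these shifts was not tested. For members near 1 FPKM the depth limits what could be detected.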

Other observations

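Some members below the testing filter differed between groups in their listed values; they were chosen after these were seen and carry no test. B3gnt8, an enzyme that lengthens N-glycan branches, lay at 0.656 to 1.52 FPKM in Hevin, 0.473 to 0.892 in Media and 0.0648 to 0.204 in LPS, and it overlaps Bckdha on the opposite strand. B3galt2 lay at 0.543 to 1.20 FPKM in LPS, 0.101 to 0.602 in Media and 0.170 to 0.338 in Hevin, and it overlaps Cdc73 likewise. B3gnt9 lay at 0.745 to 1.00 FPKM in Media, above Hevin at 0.315 to 0.577 and LPS at 0.265 to 0.717.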
